A study of Mus musculus with 6 samples.

Results

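In bone marrow progenitors of adult mice, 139 of 18194 measured genes were lower at each of 2 successive steps, from wild-type LSK FLT3- cells to wild-type LMPP, and again from wild-type LMPP to E2A-knockout LMPP. The members were selected on the measured values themselves. On the log2 scale the mean of the WT LSK FLT3- arrays had to lie at least 0.5 above that of WT LMPP, the WT LMPP mean at least 0.5 above that of E2A-KO LMPP, the arrays had to be apart at either step, and the WT LSK FLT3- mean had to exceed 5. Another 8 genes that met these limits were set aside by name, among them 4 Gimap GTPase genes, Fgd5, Ndn and Ifit1. The members are 0.764% of the genes measured. Because both contrasts chose them, their values below are a description and carry no test.

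All 6 arrays hybridised RNA from sorted cells of adult bone marrow, 2 arrays for each of 3 groups. Both wild-type groups came from C57bl/6 mice, and the E2A-KO group came from knockout mice bred on that background. The gate common to all groups was lineage-negative, SCA1-positive and KIT-positive, and FLT3 divided it into an FLT3-negative fraction (LSK FLT3-) and an FLT3-high fraction (LMPP, lymphoid-primed multipotent progenitors). The labels name neither the targeted allele, the ages, nor whether RNA of several mice was pooled, and knockout cells of the FLT3-negative fraction were not analysed here. The stated aim was to find what differs between wild-type and knockout LMPP. Nothing says that the arrays of a group stand for separate mice, so SDs and limma's p-values reflect only how far replicate arrays differ, and part of that may be technical.

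E2A, the product of the Tcf3 gene, is a basic helix-loop-helix transcription factor of the E protein class that binds the E box and is required for the early B lineage. The FLT3-negative fraction of the LSK gate contains the blood stem cells, and the FLT3-high fraction keeps granulocyte, macrophage and lymphoid potential while it has lost most capacity to make megakaryocytes and red cells. A gene that is high in stem cells and still partly present in LMPP can therefore be lower in the knockout through less RNA per cell or through fewer cells that express it, and in bulk samples these cannot be told apart.

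On the 6 arrays the median level over the 139 genes was 7.12 and 7.14 in WT LSK FLT3-, 6.17 and 6.26 in WT LMPP, then 5.52 and 5.53 in E2A-KO LMPP (log2 of the RMA intensity, the array processing the submitters used). Over all 9031 genes with a WT LSK FLT3- mean above 5, the same medians were 7.42 and 7.40, 6.98 and 7.01, and 6.91 and 6.92. The stage step, from WT LSK FLT3- to WT LMPP, ran from 0.51 to 3.21 among the members with a median of 0.86 (log2). The knockout step, from WT LMPP to E2A-KO LMPP, ran from 0.50 to 1.76 with a median of 0.61. Across both steps the members were lower by 1.05 to 4.88, with a median of 1.51. Over all 18194 genes the median stage change was -0.01 and the median knockout change -0.02. Among genes with a WT LSK FLT3- mean above 5, the median gene was already lower by 0.38 at the stage step but by only 0.04 at the knockout step.

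The stage step was the larger one in 112 genes and the knockout step in 27. The knockout step made up 20.3% to 68.1% of the whole difference, with a median of 43.2%. At least 1 log2 unit was lost at the stage step in 41 genes, at the knockout step in 11, and at both in 4, which were Mmrn1, Pde2a, Vegfc and Zfp354c. The smallest knockout shares were those of Hemgn (20.3%), Fscn1 (23.3%) and Cyp7b1 (25.0%), and the largest those of Gm4951 (68.1%), Iigp1 (67.3%), Cttn (63.7%) and Lgals9 (63.5%). Both steps are taken against the same WT LMPP arrays, so an error in those arrays moves the steps in opposite directions.

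**Figure D1:**
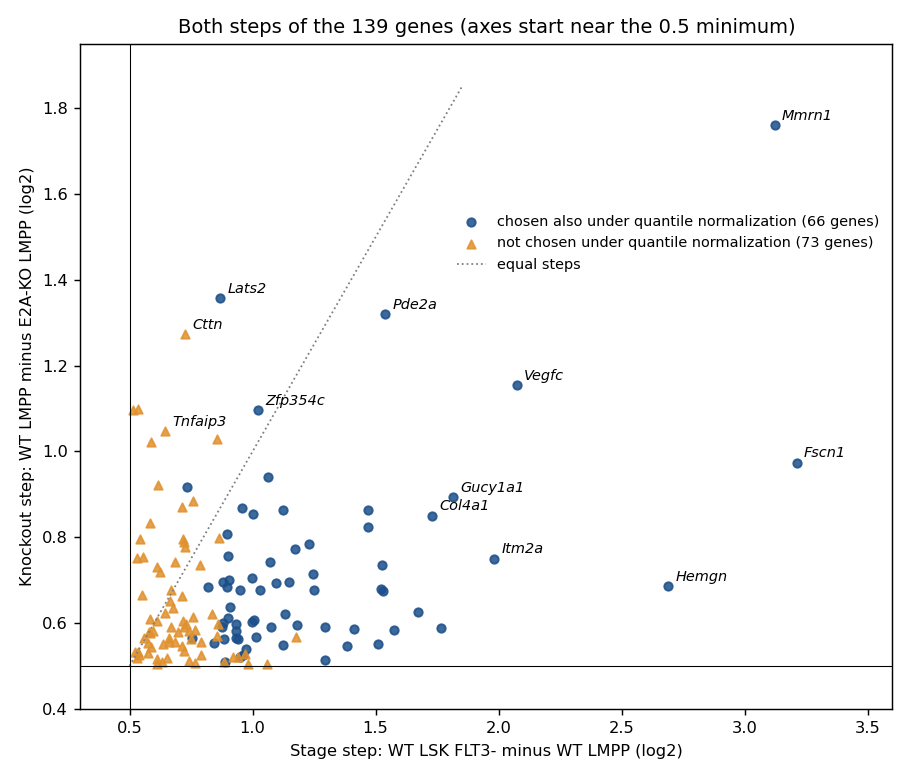
Each of the 139 genes by its stage step (x axis) and knockout step (y axis), both as log2 differences of group means, with the dotted line at equal steps and solid lines at the 0.5 minimum. Blue points are the 66 genes also chosen after quantile normalization and orange triangles the 73 that were not; the orange triangles lie mostly at small stage steps, and Mmrn1 stands apart at the upper right.

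In limma's moderated test on all 6 arrays (Benjamini-Hochberg adjusted p under 0.05), 29 members passed as lower in E2A-KO LMPP against WT LMPP, where 0.995% of all genes tested were called lower and 0.379% higher. In WT LMPP against WT LSK FLT3-, 133 members passed as lower, where 23.7% of all genes were called lower and 10.4% higher. In E2A-KO LMPP against WT LSK FLT3-, all 139 members passed as lower, where 26.5% of all genes were called lower and 11.0% higher. The choice of members fixed these counts, so nothing is read from them. Leaving out 1 array turned the 29 into 7 (either WT LSK FLT3- array, or E2A-KO LMPP replicate 1), 9 (E2A-KO LMPP replicate 2), 13 (WT LMPP replicate 1) or 21 (WT LMPP replicate 2), and the 133 into 79 or 85 (WT LSK FLT3- replicate 1 or 2). The WT LSK FLT3- arrays do not enter the knockout changes, so leaving out 1 of them alters only the estimate of the spread. The 29 genes called at both steps serve only to say which differences were largest against the spread between arrays. Another 6 members passed at neither step.

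The 15 genes with the largest smaller step were Mmrn1, Pde2a, Vegfc, Zfp354c, Fscn1, Mmp2, Gucy1a1, Bex4, Lats2, Ak4, Sgce, Chchd7, Kank2, Col4a1 and Megf9. They encode matrix and vascular proteins, enzymes of cyclic nucleotide signalling, actin and Hippo pathway proteins, and others with no common role. Of these, 14 were also chosen after quantile normalization, with Chchd7 the exception.

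**Figure D2:**
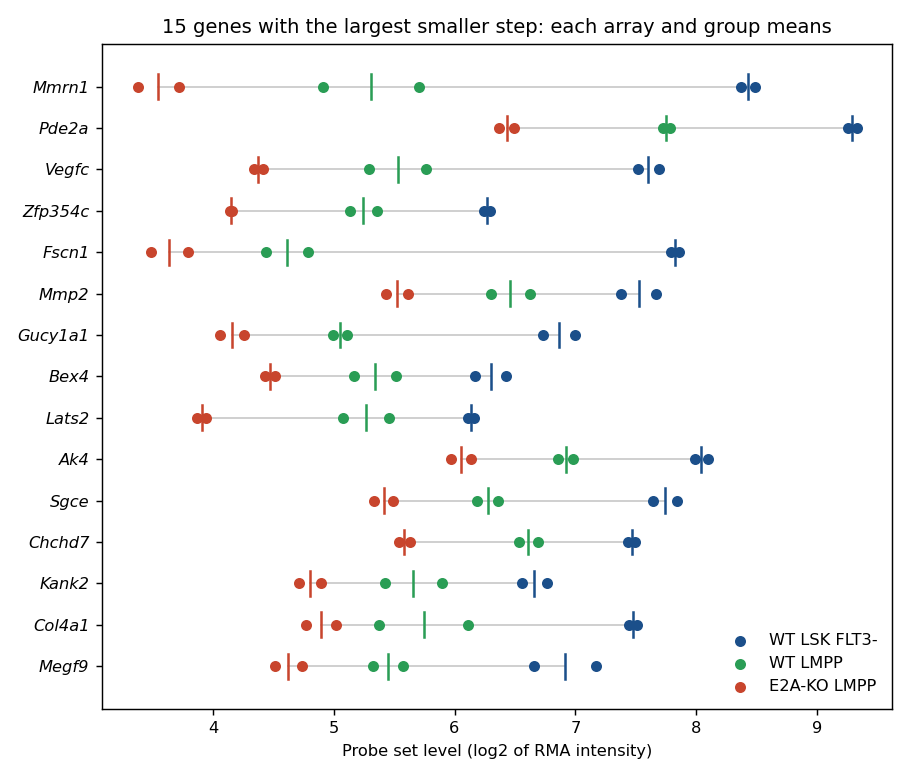
Level of the 15 genes on each array (x axis, log2 of the RMA intensity), with points for the 2 arrays of a group and a bar for the group mean. In every row the WT LSK FLT3- arrays lie to the right, the WT LMPP arrays between and the E2A-KO LMPP arrays to the left, as the selection required; the WT LMPP arrays of Mmrn1 lie farthest apart, at 4.91 and 5.71.

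Members were sorted into 9 role groups from textbook knowledge, after the members were known, and 41 genes were put in none. The groups serve to order the description and are no evidence that a role is common among the members. The median stage step was largest among 13 secreted, matrix and surface proteins (1.47) and smallest among 8 regulators of cytokine and innate receptor signalling (0.67). The median knockout step ran from 0.53 among 6 secretory pathway genes to 0.84 among 6 interferon-inducible genes.

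**Figure D3:**
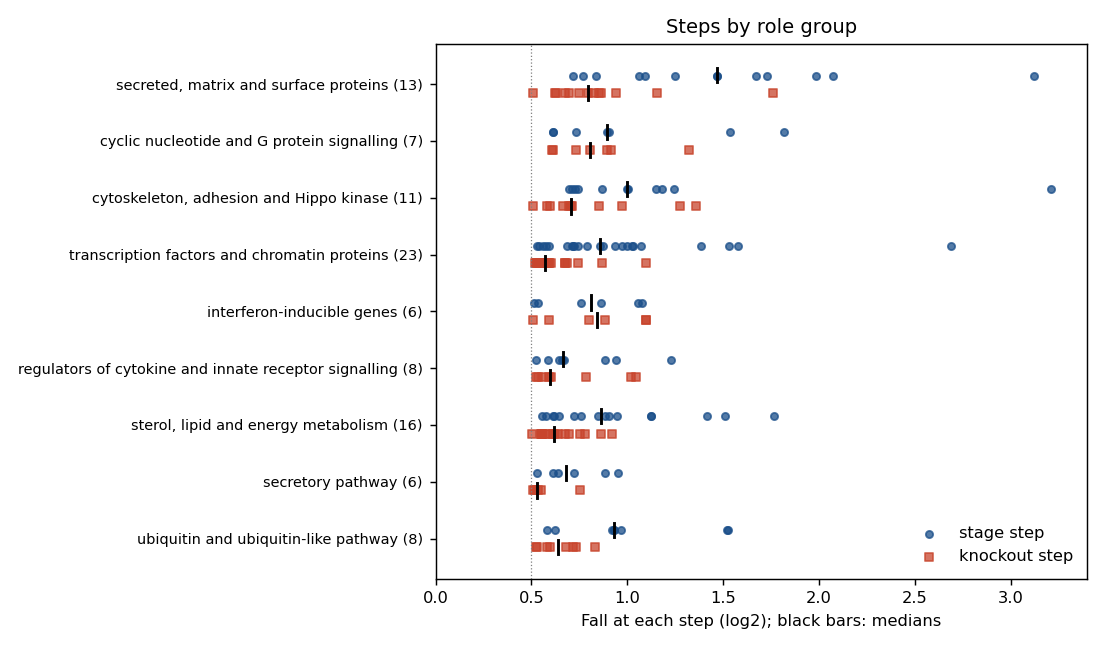
Stage step (blue circles) and knockout step (red squares) of the members in each of 9 role groups, as log2 differences on the x axis, with a black bar at each median and the dotted line at the 0.5 minimum. The number of members stands after each group's name; the interferon-inducible group has a knockout median of 0.84 and a stage median of 0.81. The widest stage steps, above 3, belong to 1 gene each of the secreted group (Mmrn1, 3.12) and the cytoskeleton group (Fscn1, 3.21).

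Secreted, matrix and surface proteins included Mmrn1, which had the largest knockout step and the largest difference over both steps of all members. It encodes multimerin, a soluble protein stored in platelets and endothelial cells. Its level was 8.37 and 8.49 in WT LSK FLT3-, 4.91 and 5.71 in WT LMPP, then 3.38 and 3.72 in E2A-KO LMPP (log2). The stage step was 3.12 (SE 0.24) and the knockout step 1.76 (SE 0.24), or 29.5-fold over both. The 2 WT LMPP arrays differed by more than either other pair of replicates, and both knockout arrays lay below the array median of about 4.04, in the low range where arrays understate differences.

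Vegfc encodes a growth factor of lymphatic vessels. Its arrays read 7.69 and 7.52, then 5.29 and 5.77, then 4.41 and 4.34, in the same order of groups, for steps of 2.07 and 1.15 (SE 0.17). Col4a1 encodes a chain of the basement membrane collagen. It read 7.44 and 7.51, 6.11 and 5.38, and 5.02 and 4.77, for steps of 1.73 and 0.85. Mmp2, a gelatinase that cleaves that collagen, read 7.38 and 7.67, 6.62 and 6.30, and 5.61 and 5.43, for steps of 1.06 and 0.94. The selection required the arrays of neighbouring groups to lie apart. Among these genes those of Col4a1 were closest at the knockout step, where 5.38 in WT LMPP faced 5.02 in the knockout. Reck, a membrane-bound inhibitor of matrix metalloproteinases, was among the smaller differences, at steps of 0.77 and 0.51.

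Among the surface proteins, Itm2a, a single-pass membrane protein, read 9.24 and 9.21, 7.15 and 7.33, and 6.56 and 6.43, for steps of 1.98 and 0.75. Prnp, the prion protein gene, read 7.67 and 7.43, 5.96 and 5.80, and 4.98 and 5.53, for steps of 1.67 and 0.63. Sgce, a sarcoglycan expressed from the paternal allele, read 7.84 and 7.65, 6.19 and 6.36, and 5.49 and 5.34, for steps of 1.47 and 0.86. In Prnp the gap between the 2 knockout arrays was wider than that from the higher of them to the lower WT LMPP array, and in Itm2a and Sgce the replicates were close at each stage. Megf9, which encodes a protein with EGF-like repeats, had steps of 1.47 and 0.82 and the largest SD among WT LSK FLT3- arrays of all members (7.17 and 6.66). Tmem98, another membrane protein, had steps of 0.84 and 0.62. Of the 13 genes of this group, 10 were also chosen after quantile normalization.

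Cyclic nucleotide and G protein signalling was represented by 7 genes that act at successive levels. Gucy1a1 encodes a subunit of the soluble guanylate cyclase that answers nitric oxide by making cyclic GMP. Its arrays read 6.99 and 6.73 in WT LSK FLT3-, 4.99 and 5.11 in WT LMPP, then 4.05 and 4.26 in E2A-KO LMPP, for steps of 1.81 and 0.89 (SE 0.15). Pde2a encodes a phosphodiesterase that cyclic GMP stimulates to degrade cyclic AMP. It read 9.25 and 9.33, 7.72 and 7.78, and 6.50 and 6.37, for steps of 1.54 and 1.32 (SE 0.13). In Pde2a each step was many times the gap between replicates in any group. Pde4d, a phosphodiesterase specific for cyclic AMP, read 7.85 and 7.91, 6.92 and 7.06, and 6.11 and 6.25, for steps of 0.89 and 0.81.

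The receptors and the G protein of this group had stage steps of 0.61 to 0.90. Gna15 encodes a G protein alpha subunit of blood cells that couples receptors to phospholipase C. It read 5.37 and 5.57, 4.71 and 4.75, and 3.80 and 3.83, so that its knockout step of 0.92 exceeded its stage step of 0.73. Adgrg1, an adhesion receptor also known as GPR56, remained high, at 9.61 and 9.75, 9.11 and 9.02, and 8.33 and 8.34, for steps of 0.61 and 0.73. Ptger3, a receptor for prostaglandin E, and Gprc5b, an orphan receptor, had knockout steps of 0.60 and 0.61. Ptger3 and Adgrg1 were not chosen after quantile normalization, because their stage changes were then -0.28 and -0.34.

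Actin, adhesion and Hippo pathway proteins were 11 of the members. Fscn1 encodes fascin, which bundles actin filaments. Its arrays read 7.79 and 7.86, 4.79 and 4.44, and 3.79 and 3.49, with the largest stage step of all members (3.21, SE 0.17) and a knockout step of 0.97. Cttn encodes cortactin, which promotes branching of actin. It had the opposite balance, at 9.03 and 8.73, 8.09 and 8.22, and 6.92 and 6.85, for steps of 0.73 and 1.27 (SE 0.15). Lats2, a kinase of the Hippo pathway that restrains the coactivators YAP and TAZ, read 6.16 and 6.11, 5.07 and 5.46, and 3.95 and 3.87, for steps of 0.87 and 1.36. Kank2, a talin-binding adhesion protein, read 6.76 and 6.56, 5.89 and 5.42, and 4.71 and 4.90, for steps of 1.00 and 0.85. Cttn was not chosen after quantile normalization, and once all probe sets of each gene were averaged the stage change of Lats2 was 0.0074, no longer below 0. The large stage step of Fscn1 rests on 1 probe set. Its other probe sets, with WT LSK FLT3- means below 5, had stage changes of 0.75, 0.28 and 0.09. Their knockout changes were -0.28, -0.16 and -0.14. Rab11fip5, an effector of recycling endosomes, had steps of 1.00 and 0.71.

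Transcription factors and chromatin proteins formed the largest group, with 23 members. Hemgn encodes hemogen, a nuclear protein of blood progenitors. It read 9.79 and 9.83, 6.96 and 7.29, and 6.29 and 6.59, for steps of 2.69 and 0.69 (SE 0.16). Gfi1b, a repressor needed for red cell and platelet production, read 6.13 and 6.17, 4.42 and 4.73, and 4.20 and 3.78, for steps of 1.58 and 0.58. Egr1, an immediate early factor, read 6.99 and 7.14, 6.07 and 6.20, and 5.64 and 5.50, for steps of 0.93 and 0.56. In these 3 genes most of the difference lay at the stage step, and their knockout steps did not pass limma's test. Also in this role group were Mitf (steps of 1.38 and 0.55), Ets2 (0.86 and 0.57), Zeb2 (0.56 and 0.56) and the SMAD co-repressor Ski (0.71 and 0.55). The glucocorticoid-induced gene Tsc22d3 had steps of 1.07 and 0.74, and the histone demethylase gene Kdm7a of 0.71 and 0.87.

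Zinc finger genes named Zfp were 9 of the members, 2.65% of the 339 measured. Over all 339, 148 fell and 15 rose from WT LSK FLT3- to WT LMPP, with a median of -0.38, and 1 fell and 0 rose in the knockout, with a median of -0.06 (limma, adjusted p under 0.05). The 1 that fell was Zfp354c, a KRAB-type repressor. It read 6.24 and 6.30, 5.13 and 5.36, and 4.14 and 4.16, for steps of 1.02 and 1.10. Zfp51 read 6.80 and 6.44, 5.33 and 4.85, and 4.31 and 4.52, for steps of 1.53 and 0.67. Zfp467, Zfp667, Zfp729a, Zfp319, Zfp820, Zfp277 and Zfp606 had knockout steps of 0.54 to 0.68. In Zfp606 the WT LMPP arrays, at 5.85 and 6.66, had the largest SD of all members in that group. The stage counts of the family became 82 falls and 14 rises after quantile normalization.

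Interferon-inducible genes were 6 of the members. Iigp1, an immunity-related GTPase, read 7.64 and 7.46, 6.91 and 7.12, and 6.15 and 5.68, for steps of 0.53 and 1.10 (SE 0.18). Rsad2 encodes viperin, an antiviral enzyme. It read 7.23 and 7.19, 6.64 and 6.26, and 5.54 and 5.59, for steps of 0.76 and 0.88. Gbp2 and Gbp8, guanylate-binding proteins, had steps of 1.06 and 0.51, and of 0.86 and 0.80. The nucleotide kinase gene Cmpk2, the direct neighbour of Rsad2 among protein-coding genes, had steps of 1.08 and 0.59. Gm4951, another immunity-related GTPase gene near Iigp1, read 5.85 and 5.60 in WT LMPP but 4.14 and 5.11 in the knockout, among the widest replicate gaps. The knockout step was the larger one in Iigp1, Rsad2 and Gm4951 and the smaller one in Gbp2, Gbp8 and Cmpk2. Only Cmpk2 was also chosen after quantile normalization, although Gbp8 then still changed by -0.81 and -0.85.

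The interferon response list of 18 measured genes, drawn up for the whole pathway, held 3 members (Gbp2, Iigp1 and Rsad2). Over the list 7 fell and 0 rose in E2A-KO LMPP, with a median of -0.64. Between the wild-type stages 4 fell and 1 rose, with a median of -0.19, and after quantile normalization 2 fell and 4 rose, with a median of 0.12. Among genes of the list that are no members, Oasl2 was at 7.14, 6.78 and 5.90 in the 3 groups, with a stage change of -0.36 that did not pass and a fall of 0.88 in the knockout (SE 0.13, limma adjusted p = 0.0152). Irf9, a subunit of the factor that interferon activates, was at 7.86, 8.13 and 7.29, with no passing stage change (0.27) and a knockout fall of 0.84 (limma adjusted p = 0.0311). Ifit3 rose by 0.89 at the stage step and fell by 0.90 in the knockout (limma adjusted p = 0.00243 and 0.0218). Of the 18 genes, 3 fell at both steps, namely Iigp1, Rsad2 and Ifit1, the last of which was set aside by name.

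Regulators of cytokine and innate receptor signalling were 8 members: the inhibitors Socs2, Cish and Tnfaip3, the adaptors Gab1 and Tifa, the ubiquitin ligases Peli1 and Peli2, and Lgals9. Socs2, a feedback inhibitor of cytokine receptors, read 5.67 and 5.63, 4.51 and 4.33, and 3.65 and 3.62, for steps of 1.23 and 0.79 (SE 0.13). Cish, of the same family, read 7.41 and 7.50, 6.63 and 6.95, and 6.23 and 6.16, for steps of 0.67 and 0.59. Tnfaip3 encodes A20, which ends NF-kappaB signalling. It read 6.97 and 7.05, 6.32 and 6.41, and 5.34 and 5.29, for steps of 0.64 and 1.05. Lgals9 encodes galectin-9 and read 7.58 and 7.73, 7.15 and 6.99, and 6.16 and 5.94, for steps of 0.59 and 1.02. In Tnfaip3 and Lgals9 the knockout step was the larger one and exceeded the gap between replicates, but neither was chosen after quantile normalization, which left stage changes of -0.24 and -0.20.

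Of 32 measured cytokine receptor and Jak-Stat genes, Cish and Socs2 were the only members. Over that list 8 fell and 6 rose at the stage step, with a median of -0.18, and 3 fell and 1 rose in the knockout, with a median of -0.14. The signal transducers Stat5a and Stat3 fell by 0.91 and 0.75 at the stage step and differed by -0.12 each in the knockout, which did not pass. The 3 falls in the knockout were Socs2, Csf1r (by 1.13) and the receptor chain gene Il6st (by 0.85), and the rise was Il18r1 (1.12). After quantile normalization the stage counts of this list were 3 falls and 7 rises, with a median of 0.09. Of 20 TGF-beta and BMP pathway genes, 9 fell and 1 rose at the stage step (5 and 1 after quantile normalization) and 1 fell in the knockout. That 1 was Smad7, an inhibitor of the pathway, which rose by 0.83 and then fell by 0.97; Ski was the only member. Of 16 immediate early genes 5 fell and 2 rose at the stage step and 0 changed in the knockout, with Egr1 the only member.

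Metabolic genes were 16 members. The sterol pathway was represented by Msmo1, a methylsterol oxidase, which read 6.46 and 6.62, 5.05 and 5.02, and 4.44 and 4.52, for steps of 1.51 and 0.55. Fdft1, squalene synthase, had steps of 0.95 and 0.68, and Cyp7b1, an oxysterol hydroxylase, read 6.41 and 6.27, 4.70 and 4.44, and 3.85 and 4.12, for steps of 1.77 and 0.59. All 3 sterol genes were also chosen after quantile normalization. Ak4, a mitochondrial adenylate kinase, read 7.99 and 8.10, 6.98 and 6.86, and 5.97 and 6.14, for steps of 1.12 and 0.86. Idh1, the cytosolic isocitrate dehydrogenase, read 8.14 and 8.06, 7.48 and 7.61, and 6.76 and 6.82, for steps of 0.55 and 0.75. Slc2a1, the glucose transporter also called GLUT1, had a knockout step of 0.92, but its knockout arrays were at 5.55 and 6.56, the largest SD of all members in that group. Slc2a1 was the only member among 362 solute carrier genes measured. Dbt and Ppm1k, a subunit and the activating phosphatase of the branched-chain keto acid dehydrogenase, had knockout steps of 0.78 and 0.51.

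The secretory pathway group had 6 members and the ubiquitin group 8. Copb2, a coat protein of Golgi vesicles, read 8.82 and 8.78, 8.12 and 8.42, and 7.33 and 7.71, for steps of 0.53 and 0.75. Uso1, a Golgi tether, had steps of 0.88 and 0.51, the SNARE gene Bet1 of 0.72 and 0.53, and the small GTPase gene Rab29 of 0.64 and 0.55. Among ubiquitin ligases Rffl, which read 7.90 and 7.82, 7.31 and 7.25, and 6.46 and 6.43, had steps of 0.58 and 0.83. Fbxo30 (1.52 and 0.68) and Rnf180 (1.53 and 0.73) had larger stage steps, and the deubiquitinase gene Usp9x had steps of 0.62 and 0.72. After quantile normalization 1 of the 6 secretory genes and 4 of the 8 ubiquitin genes were still chosen.

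Among members outside the role groups, Bex4 read 6.17 and 6.43, 5.51 and 5.17, and 4.51 and 4.43, for steps of 0.96 and 0.87, and Chchd7 read 7.50 and 7.43, 6.53 and 6.69, and 5.63 and 5.54, for steps of 0.85 and 1.03. The potassium channel gene Kcnk5 read 6.55 and 6.68, 5.37 and 5.51, and 4.71 and 4.63, for steps of 1.17 and 0.77. Fam8a1 stayed among the brightest members, at 9.82 and 9.53, 8.95 and 8.96, and 8.13 and 8.20. Cyp4v3, a fatty acid hydroxylase, had steps of 0.91 and 0.70, and Lhfpl2 of 0.54 and 0.80. The membrane protein gene Tmem218 had steps of 0.65 and 0.52. These genes were put in no role group. Bex4, Kcnk5 and Cyp4v3 were also chosen after quantile normalization.

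E proteins bind the E box CANNTG, and in lymphoid cells often its forms CAGCTG and CAGGTG. The promoters of 4 leading genes that hold one of these forms are shown to place the motif. Pde2a has 5 RefSeq windows and Gucy1a1 and Lats2 have 2 each, of which 1 holds the motif and was picked for it; Kank2 has 1 window. Each is the RefSeq window of 250 bases before a start of the gene on GRCm38.p6, 5′ to 3′ on the gene's strand, with the motif in capitals. The window shown for Pde2a is chr7:101455812-101456061 on the plus strand, that of Gucy1a1 chr3:82145651-82145900 on the minus strand, and that of Lats2 chr14:57746124-57746373 on the minus strand. That of Kank2 is chr9:21798547-21798796 on the minus strand.
Pde2a: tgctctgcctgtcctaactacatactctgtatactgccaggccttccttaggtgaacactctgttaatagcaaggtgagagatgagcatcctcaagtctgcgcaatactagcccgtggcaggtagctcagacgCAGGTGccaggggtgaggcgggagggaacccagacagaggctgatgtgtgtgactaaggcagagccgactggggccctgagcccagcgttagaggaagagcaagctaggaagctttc
Gucy1a1: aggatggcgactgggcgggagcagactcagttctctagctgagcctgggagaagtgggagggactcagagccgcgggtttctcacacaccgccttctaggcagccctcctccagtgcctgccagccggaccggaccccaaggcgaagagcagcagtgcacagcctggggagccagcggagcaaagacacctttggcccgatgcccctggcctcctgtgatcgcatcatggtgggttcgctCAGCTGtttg
Lats2: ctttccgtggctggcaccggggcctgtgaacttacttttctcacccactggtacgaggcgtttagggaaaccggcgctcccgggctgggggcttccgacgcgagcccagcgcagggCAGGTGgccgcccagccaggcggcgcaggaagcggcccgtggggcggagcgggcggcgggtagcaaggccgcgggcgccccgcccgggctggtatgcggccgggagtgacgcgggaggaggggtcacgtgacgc
Kank2: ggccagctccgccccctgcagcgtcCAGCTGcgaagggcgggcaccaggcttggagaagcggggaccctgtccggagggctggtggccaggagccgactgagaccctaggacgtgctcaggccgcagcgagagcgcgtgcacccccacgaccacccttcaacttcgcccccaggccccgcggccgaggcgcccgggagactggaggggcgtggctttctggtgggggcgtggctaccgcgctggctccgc

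Of the 139 genes, 114 had an entry in the promoter table, with 151 windows, 300 bases long. CAGCTG or CAGGTG, on either strand, occurred in 30.5% of the members' windows, against 32.9% of the windows of all measured genes and 32.9% of the whole table. Counted by gene, with a match in any window, it was 38.6% of the members with an entry against 36.6% of measured genes. In members also chosen after quantile normalization the share was 31.1% of windows and 42.3% of genes. The wider form CANNTG, which contains both, occurred in 58.3% of members' windows, 67.6% of those of members also chosen after quantile normalization and 67.4% of those of measured genes. By gene these shares were 64.9%, 78.8% and 70.8%. A match says only that the letters stand in this window.

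Of 28 measured genes on a list of stem cell genes, 23 fell and 1 rose from WT LSK FLT3- to WT LMPP, with a median of -1.59, while 3 fell and 0 rose in the knockout, with a median of -0.06 (limma, adjusted p under 0.05). The members on the list were Mmrn1, Gfi1b and Sult1a1, and of the 28 genes only Mmrn1 fell at both steps by that test. Fgd5 (changes of -0.92 and -0.77) and Ndn (-1.41 and -0.74), also on the list, met the limits of the selection but were set aside by name. Since members were chosen for a lower level in the knockout, a contrast between them and the rest of the list is set by that choice. Tek, the angiopoietin receptor, was at 6.11, 3.09 and 2.96 in the 3 groups, so it was already below the array median in WT LMPP. Procr, an endothelial receptor that marks stem cells, was at 9.19, 6.84 and 6.97, and Mecom, a stem cell transcription factor, at 9.54, 8.03 and 8.27. Neither Tek, Procr nor Mecom passed in the knockout, with changes of -0.14, 0.14 and 0.24. The other 2 knockout falls were Robo4, a receptor of endothelial and stem cells (by 1.44, SE 0.14, limma adjusted p = 0.00176), and Hmga2 (by 2.78), which rose by 0.53 at the stage step. No member was found among 18 lymphoid priming genes, of which 15 rose and 2 fell at the stage step and 9 fell in the knockout, with none rising.

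Markers of other cells that the gate could hold moved as well. The summed level of 5 neutrophil markers was 10.35 and 10.25 in WT LSK FLT3-, 11.20 and 11.19 in WT LMPP, then 8.83 and 8.60 in E2A-KO LMPP (log2), so it did not step down with the members. That of 7 B and plasma cell markers was 10.35 and 10.50, 6.93 and 6.92, and 6.67 and 6.92, carried by Igha and Jchain, with Ms4a1 and Ebf1 below the array median on all arrays. The sums for 3 megakaryocyte markers (8.77 and 8.68, 6.41 and 6.40, 6.82 and 6.75), 3 erythroid markers (8.57 and 8.58, 5.90 and 6.07, 6.41 and 6.15) and 3 mast cell markers (7.62 and 7.57, 4.75 and 4.84, 5.16 and 5.11) were lower in both LMPP groups than in WT LSK FLT3- and were not lower in the knockout than in WT LMPP. Car1 and Klf1 carried the erythroid sum, while Alas2 moved the other way, with group means of 3.28, 3.99 and 3.76. The sum of 4 markers of stroma and endothelium, cells that also make the matrix proteins, stayed between 5.87 and 6.26 on all arrays. Of these markers, Cdh5 and Col1a1 lay below the array median on every array. On a longer stroma and endothelium list of 12 measured genes, Vcam1 fell (-1.77) and Lepr rose (0.57) at the stage step. In the knockout Pdgfrb fell (-1.15), with group means of 7.84, 7.90 and 6.75. No other gene of that list passed at either step (limma, adjusted p under 0.05). The sum of 6 T cell markers lay between 6.97 and 7.31, with Cd3d and Cd3g below the array median. The sums of 3 NK markers were 9.08 and 9.19, 8.27 and 8.28, and 9.18 and 8.90, and those of 3 dendritic cell markers 5.37 and 5.60, 6.26 and 6.22, and 5.89 and 6.20. Flt3 itself was at 8.87 and 8.76 in the FLT3-negative sort and at 10.70 to 10.80 on all LMPP arrays. Kit, also a gene of the gate, was lower at both steps, at 10.05 and 10.38, 9.05 and 8.91, and 8.85 and 8.47. Cd34 was at 10.53 and 10.62, 11.02 and 11.06, and 11.05 and 10.92. The 5 measured stem cell markers were Tek, Vwf, Procr, Mecom and Hlf, with Hlf the brightest. Their sum was 11.42 and 11.52, 9.78 and 9.60, and 9.98 and 9.99, so it was not lower in the knockout than in WT LMPP. Vwf and Hlf changed by 0.25 and 0.38 in the knockout, and neither passed. The part of these cells in the members' differences was not tested.

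**Figure D4:**
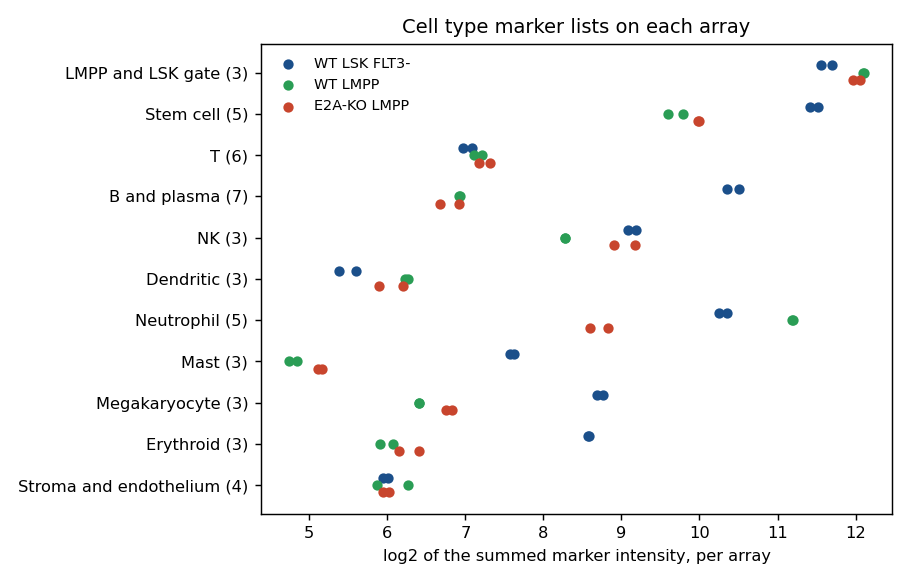
Summed level of 11 cell type marker lists (log2 of summed intensity, x axis), 1 point for each array and the number of measured markers after each name. The neutrophil sum is highest in WT LMPP and lowest in E2A-KO LMPP; the megakaryocyte, erythroid and mast cell sums are high in WT LSK FLT3- alone; and the stroma and endothelium sums overlap between the groups.

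Array distribution also differed with the stage, as did the 3′ to 5′ difference of Actb but not that of Gapdh. The upper quartile of the probe sets was 6.13 and 6.15 in WT LSK FLT3- and 5.78 to 5.82 over LMPP arrays of both genotypes, while the medians were 3.90 to 3.91 and 4.01 to 4.04. The difference between 3′ and 5′ control probe sets of Actb was 3.45 and 3.55 in WT LSK FLT3-, 3.89 and 3.95 in WT LMPP, then 3.77 and 3.86 in E2A-KO LMPP, while that of Gapdh overlapped between the stages. The knockout step lay between arrays of like distribution, and the stage step did not.

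After quantile normalization, which gives all arrays the same distribution, 80 genes met the same limits, of which 66 were members. Those are 47.5% of the 139 and 82.5% of the 80. The median stage change of the 139 genes became -0.54, and their median knockout change -0.63. All 139 stayed below 0 at both steps. Of the 73 genes no longer chosen, 63 had a stage step under 0.5 and 12 a knockout step under 0.5. Gbp8 (-0.81 and -0.85), Lrrc49, Ccdc120, Zfp820 and Xrcc4 (-0.65 and -0.57) kept both steps above 0.5. These steps are on the probe set chosen as deposited, whereas the choice after quantile normalization picked each gene's probe set anew. Gbp8, Lrrc49, Ccdc120 and Zfp820 had deposited WT LSK FLT3- means of 5.02 to 5.06, close to the limit of 5. Xrcc4 has a second probe set, with changes of -0.17 and -0.16 as deposited. Which condition each of these genes missed was not recorded. The 66 genes had a median stage change of -1.07 as deposited and -0.73 after quantile normalization, and the 73 had -0.68 and -0.33. A further 14 genes were chosen only after quantile normalization, among them Pde5a, a phosphodiesterase for cyclic GMP, and Ahr, with knockout changes of -0.47 and -0.48 as deposited. These 2 are named after their values were seen.

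**Figure D5:**
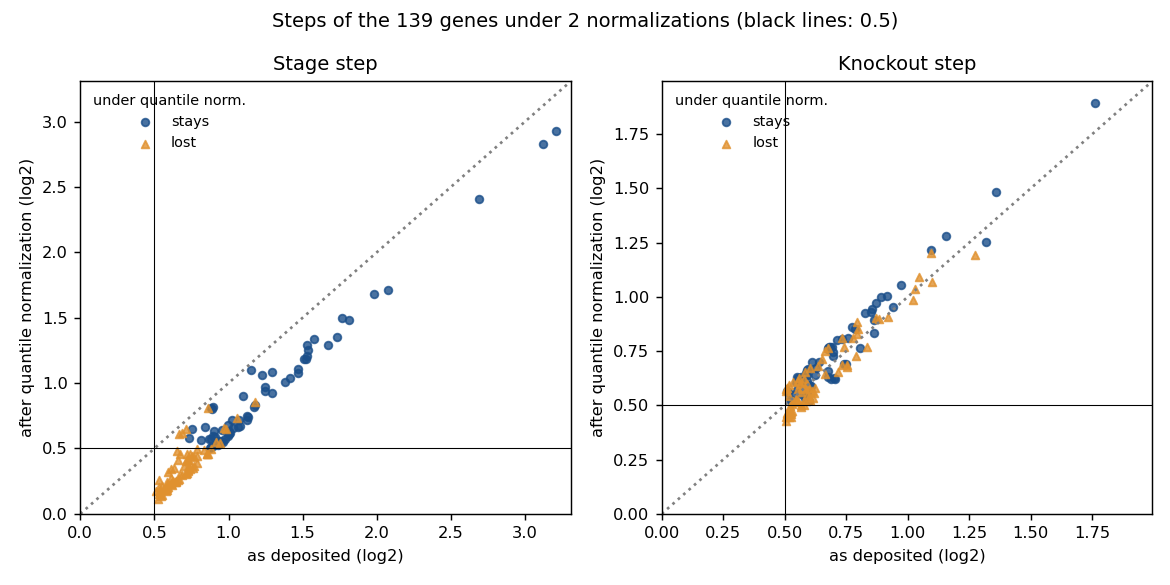
Stage step (left) and knockout step (right) of the 139 genes, as deposited (x axis) and after quantile normalization (y axis), in log2; the dotted line marks equal values and black lines the 0.5 minimum. In the left panel the points lie below the dotted line and many pass under 0.5, while in the right panel they follow it.

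Other probe sets of the same genes were not used by the selection, although they share the arrays and the RNA. There were 73 of them for 57 genes with a WT LSK FLT3- mean above 5. Of these 53 (72.6%) were lower at both steps and 16 (21.9%) by at least 0.5 at both, with a median stage change of -0.64 and a median knockout change of -0.25. Among 5144 such probe sets of 3386 genes that are no members, 43.0% were lower at both steps and 1.56% by at least 0.5 at both, with medians of -0.39 and -0.04. The limit of 5 on WT LSK FLT3- favours a lower level in LMPP, and other probe sets of a chosen gene repeat the contrasts that chose it, so these shares are a description. At the stage step 9 were higher, and at the knockout step 14. The second probe set of Socs2 differed by -1.57 and -1.24, that of Iigp1 by -0.75 and -1.05, that of Adgrg1 by -0.95 and -0.77, that of Cyp7b1 by -1.60 and -0.90 and that of Mmp2 by -0.96 and -0.62. Against these, a second probe set of Pde2a differed by -0.12 and 0.22 and another by -1.18 and -0.23, that of Itm2a by -0.61 and 0.31, that of Col4a1 by -0.22 and 0.09 and that of Kank2 by -0.12 and -0.05. For Vegfc the 2 others differed by -1.93 and -0.20 and by -1.40 and -0.58. Of 114 probe sets with a WT LSK FLT3- mean of 5 or below, 24 were lower at both steps. These genes were chosen after their values were seen, to show both outcomes.

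The choice was also made on 5 arrays at a time. Without WT LSK FLT3- replicate 1, 140 genes were chosen and 131 of them were members, and without replicate 2 it was 131 of 138. Without WT LMPP replicate 1, 100 of 160 chosen genes were members, and without replicate 2 it was 89 of 139. Without E2A-KO LMPP replicate 1 it was 102 of 160, and without replicate 2 it was 118 of 226. Leaving out E2A-KO LMPP replicate 2 thus let in the most genes, and leaving out WT LMPP replicate 2 kept the fewest members. These choices share 5 of the 6 arrays with the full one and are no independent check of it.

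Near the limits, the smallest stage steps inside were those of Gm4951 (0.51), Tifa (0.52) and Tox4 (0.53), and the largest outside those of Prkcq (0.50 when rounded), Ddit4 (0.49) and Homer1 (0.49). The smallest knockout steps inside were Xrcc4, Ppm1k and Gbp2 (0.50 to 0.51) and the largest outside Timm17b, Btbd7 and Brwd3 (0.50). The dimmest members in WT LSK FLT3- were Lrrc49 (5.02), Ccdc120 (5.05) and Zfp820 (5.06), and Atg16l2 (4.95), Pde4dip (4.70) and Clec4a3 (3.94) lay outside. At the low end, 18 members had an E2A-KO LMPP mean below the highest array median of 4.04, and 1 a WT LMPP mean below it, so that their differences may be understated. The median SD between replicates was 0.0878 in WT LSK FLT3-, 0.156 for WT LMPP and 0.14 for E2A-KO LMPP, against 0.0808, 0.124 and 0.119 over all genes.

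By Entrez ID, 138 members had a place in the RefSeq gene table. On the X chromosome lay 8 of them (5.8%), against 3.42% of all measured genes, and they were Bex4, Bex1, Itm2a, Tsc22d3, Fhl1, Usp9x, Ccdc120 and Phf8. In 7 pairs the members had at most 2 protein-coding genes between them: Rsad2 and Cmpk2 with 0, Tifa and Fam241a with 1, and Rgcc and Kbtbd7, Gm4951 and Iigp1, Pex10 and Ski, Bet1 and Sgce, and Bex4 and Bex1 with 2 each. Such pairs were not counted among other measured genes, so the number says nothing about whether members lie close together. Bex1 was the brightest member, at 11.08 and 10.84, 9.72 and 9.61, and 8.91 and 9.24, for steps of 1.29 and 0.59.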

How the data were processed

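RNA of 6 sorted samples, 2 for each of 3 groups taken from the sample titles, was measured on Affymetrix 3′ expression arrays. Per the labels' protocols, cells were sorted into lysis buffer and biotin-labelled cRNA was made with a small-sample amplification. The deposited values are linear intensity values per probe set, made by the authors with RMA per the submitters' processing notes; the version and whether all arrays were processed in 1 run are not given in the sources used here. Here log2 was taken. The platform annotation gives 1 symbol for 34958 of 45101 probe sets, several for 932 and none for 9211; each of 18194 genes was represented by its single-symbol probe set with the highest mean over the 6 arrays.

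The members, the gene lists, the role groups and the limits were chosen with earlier results of these data known. limma 3.58.1 in R 4.3.3 fitted 1 mean per group to all 6 arrays (3 residual and 5.8 prior degrees of freedom). Its p-values are two-sided and Benjamini-Hochberg adjusted over all 18194 genes, with a threshold of 0.05. An SD is that of the 2 replicate arrays, and each SE is the model's. Data were simulated for the knockout comparison in LMPP, with 18194 genes and 200 of them lowered in the knockout. The recovered share was 1% at a change of 0.5 (log2), 50.8% at 1 and 94.8% at 2, and 3.08% of the calls were false. The simulation had no stage difference, drew normal noise and shuffled the spreads among genes. The measured arrays differ from these settings, so the shares may not hold for them. The number of arrays limits the precision.

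Members named in the text are the 15 with the largest smaller step, the 10 with the largest step at either stage, those on a list or in a gene family, and those called at both steps; members outside this rule are named to describe a role group or a limit, after their values were seen. The alternatives were quantile normalization (limma), centring on array medians, averaging a gene's probe sets, leaving out the dimmest 40% of genes, only the 4 arrays of a comparison, a replicate block, a variance trend, other limits of the selection and leaving out each array. No label ties equal replicate numbers to a shared animal or day, and same-numbered samples did not deviate together (r from -0.0417 to 0.0226). A free-text label that calls every sample wild-type LMPP was set aside, since titles and source names differ. Python 3.11.15 with matplotlib 3.10.9 drew the figures.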

Additional observations from a re-analysis of the deposited data

How the results depend on the processing

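The number of stepwise genes, 139 as deposited, was 80 after quantile normalization, 60 with the mean of all probe sets, and 266, 21 and 4 with a minimum step of 0.4, 0.75 and 1. Leaving out 1 array gave 138 to 226, the highest without E2A-KO LMPP replicate 2. Genes changed in E2A-KO against WT LMPP, 250 in the full fit, numbered 89 on the 4 arrays alone and 548 with a variance trend, and 89 to 164 with 1 array left out. Between the wild-type stages 6198 genes became 3488 after quantile normalization and 2370 to 6410 with 1 array left out, and between E2A-KO LMPP and WT LSK FLT3- 6822 became 3609 and 2944 to 7515. Of the stage calls 69.5% were lower as deposited, 52.5% after quantile normalization and 82.2% after centring on medians, which moved the median gene to -0.12. The members called lower in the knockout, 29 in all, were 13 with the mean of all probe sets, 44 without the dimmest 40% of genes, 7 on the 4 arrays, 57 with a variance trend and 7 to 21 with 1 array left out. Those called at the stage step, 133, were 69 after quantile normalization and 79 to 135 with 1 array left out, the lowest without WT LSK FLT3- replicate 1. The members' median knockout change was -0.42 with the mean of all probe sets, and their median stage change -0.62 with it and -0.54 after quantile normalization. With the replicate block 200, 5914 and 6535 genes changed in the 3 comparisons, and 21 members were called at the knockout step and 133 at the stage step. With the mean of all probe sets 4 of 112 values of named members turned: the knockout changes of Zfp606 (0.0512) and Zfp729a (0.0427) and the stage changes of Lats2 (0.0074) and Lhfpl2 (0.161). The rest of the 1456 values over all alternatives kept their direction. For most alternatives the selection and the design fixed this, so it is no sign of stability. Arrays of neighbouring groups lie apart in every member, so leaving out 1 array cannot turn a step. The replicate block, the variance trend, the 4-array fit and leaving out dim genes keep the same group means. The cause of the other differences between alternatives was not tested. With 2 arrays a group, and 18 members in the low range of the knockout arrays, sizes near 0.5 are imprecise.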
